A study of Homo sapiens with 6 samples.

Results

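The 40 genes described here are interferon-stimulated genes, which cells switch on when interferon reaches them. They were taken by gene symbol from a list, and all 40 were found among the 25277 gene rows of one expression table. The table holds RNA levels of 2 human lines, Jeko and Rec-1, both grown from mantle cell lymphoma, a cancer of B cells. In both lines Cas9, an enzyme that cuts DNA where a guide RNA directs it, was used to target NR4A1, a gene for a nuclear receptor. Each line gave 3 libraries of total RNA: 1 with the empty Cas9 vector (control), 1 with NR4A1 sgRNA 1 and 1 with NR4A1 sgRNA 2. All 6 cultures, controls included, were stable tet-on lines kept with doxycycline for 48 h. No library had a replicate of the same line and guide, and whether the lines were clones or pools is not given in the sources used here. No library is labelled as treated with interferon.

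Type I interferons bind a receptor of 2 chains, IFNAR1 and IFNAR2, and the kinases JAK1 and TYK2 then act on STAT2. STAT2 and IRF9 are subunits of the complex ISGF3, which binds the interferon-stimulated response element (ISRE) in promoters. Some of the products sense viral RNA (IFIH1, DDX58), some block viral replication (MX1, the IFIT and OAS proteins), and some restrain the response (USP18). Many are kept at a low level in unstimulated cells. The whole set is often read together as a record of interferon signalling.

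Promoters of some members described below are shown here, chosen among those that held ISRE-like letters. The windows are from RefSeq (GRCh38.p14) and run from 250 bases before to 50 bases after the annotated start, 300 bases in all. They are printed 5′ to 3′ on the gene's strand, with capitals marking GAAANNGAAA, the core repeat of the ISRE, found on the printed strand. ISG15 is at chr1:1013247-1013546 on the plus strand, and OAS3 is at chr12:112938224-112938523 on the plus strand. The minus-strand windows are IFI6 at chr1:27672143-27672442, EPSTI1 at chr13:42992192-42992491 and SAMD9 at chr7:93117930-93118229.
ISG15: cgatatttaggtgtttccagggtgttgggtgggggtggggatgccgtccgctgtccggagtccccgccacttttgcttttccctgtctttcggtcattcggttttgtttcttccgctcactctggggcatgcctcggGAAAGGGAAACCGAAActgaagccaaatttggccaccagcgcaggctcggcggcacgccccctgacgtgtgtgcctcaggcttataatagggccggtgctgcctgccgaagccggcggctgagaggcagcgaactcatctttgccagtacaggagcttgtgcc
OAS3: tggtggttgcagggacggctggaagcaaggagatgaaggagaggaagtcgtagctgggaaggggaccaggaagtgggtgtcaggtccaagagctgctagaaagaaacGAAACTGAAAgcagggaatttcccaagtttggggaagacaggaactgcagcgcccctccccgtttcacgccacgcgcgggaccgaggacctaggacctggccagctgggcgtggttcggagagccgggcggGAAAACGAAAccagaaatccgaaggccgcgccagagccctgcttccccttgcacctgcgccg
IFI6: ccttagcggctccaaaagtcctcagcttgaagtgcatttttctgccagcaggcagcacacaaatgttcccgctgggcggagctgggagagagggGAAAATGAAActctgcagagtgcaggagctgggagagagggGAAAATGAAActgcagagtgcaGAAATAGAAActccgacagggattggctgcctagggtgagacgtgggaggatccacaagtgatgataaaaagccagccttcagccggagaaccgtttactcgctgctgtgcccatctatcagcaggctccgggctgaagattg
EPSTI1: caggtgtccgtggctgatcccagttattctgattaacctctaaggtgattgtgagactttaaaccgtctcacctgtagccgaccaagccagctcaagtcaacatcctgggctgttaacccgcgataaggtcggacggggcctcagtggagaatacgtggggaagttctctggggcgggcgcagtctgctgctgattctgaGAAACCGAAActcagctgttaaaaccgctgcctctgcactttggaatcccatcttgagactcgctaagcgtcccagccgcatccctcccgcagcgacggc
SAMD9: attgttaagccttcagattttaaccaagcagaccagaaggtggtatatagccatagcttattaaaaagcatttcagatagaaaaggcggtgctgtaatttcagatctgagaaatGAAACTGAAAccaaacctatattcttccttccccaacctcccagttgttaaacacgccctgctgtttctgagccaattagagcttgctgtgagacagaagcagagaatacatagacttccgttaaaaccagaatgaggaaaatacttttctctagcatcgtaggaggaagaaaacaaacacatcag
In ISG15 a pair of matches overlap, running from −113 to −104 and from −107 to −98 relative to the start. OAS3 held matches beginning at −143 and −12, and IFI6 held 3, beginning at −156, −115 and −93. EPSTI1 and SAMD9 had 1 match each, beginning at −50 and −136.

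Promoter windows were found for 33 of the 40 genes, DDX58 under its newer symbol RIGI. The search used GAAANNGAAA and its reverse complement TTTCNNTTTC, which are the same motif on opposite strands. A match was present in 21 of the 33 members (63.6%) in any window, against 4.38% of 27305 genes. Members without a match included OAS1 and SAMD9L, and those without a window included OAS2 and MX2. Among genes with a single window the shares were 15 of 22 members (68.2%) and 3.81% of 22114 genes. The palindrome TTCNNNGAA, a form of the gamma-activated site, was in 9 of the 33 members (27.3%) and in 9.38% of all genes. A match describes letters in the window and not a bound site.

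Levels are given in FPKM, fragments mapped to a gene per length of transcript and per depth of the library, which can be set side by side between genes. The FPKM of a library summed to between 905778 and 1160107, and the numbers of fragments behind them are not given in the sources used here. Low values put the depth of 4 libraries at 0.687 (Rec-1 sgRNA 2) to 1.10 times that of the Jeko control. For Rec-1 sgRNA 1 no common step was found, since the commonest ratio was shared by 4 of 562 genes, and how that library was quantified is not given in the sources used here. NR4A1 itself stood at 5.99 FPKM in the Jeko control, 3.89 in Jeko sgRNA 1 and 4.44 in Jeko sgRNA 2. In Rec-1 it stood at 11.6 in the control, 27.4 with sgRNA 1 and 12.7 with sgRNA 2, so this RNA did not fall in Rec-1. A Cas9 cut need not lower the RNA, so these values check neither the labels nor the editing.

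The library labelled Rec-1 control stood apart from the Rec-1 sgRNA libraries. Over 11400 genes the Pearson correlation of log2(FPKM + 1) was 0.941 between both controls, but 0.757 between the Rec-1 control and Rec-1 sgRNA 1 and 0.762 between it and Rec-1 sgRNA 2, a description across genes, which are not independent. CCND1, the cyclin gene whose translocation defines mantle cell lymphoma, ranged from 442 to 815 FPKM over the Jeko libraries and reached 495 in the Rec-1 control, against 0.696 and 0.592 in Rec-1 sgRNA 1 and 2. Summed levels of 7 B-cell markers were 589 to 1036 FPKM in every library. The 4 T-cell markers CD3D, CD3E, CD3G and CD2 summed to 2.11 to 5.43 FPKM in the Jeko and Rec-1 control libraries and to 102 and 120 in the Rec-1 sgRNA libraries. Of these, CD2 was at 0.0288 and 0 in those 2 libraries while CD3D was at 66.3 and 95.3. The defining markers of plasmacytoid dendritic cells, which are strong interferon producers, summed to 0.0233 to 0.134 FPKM in all libraries. Every comparison of Rec-1 sgRNA with its control, or of the lines as labelled, rests on that control, and the part that this mismatch plays was not tested.

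**Figure D1:**
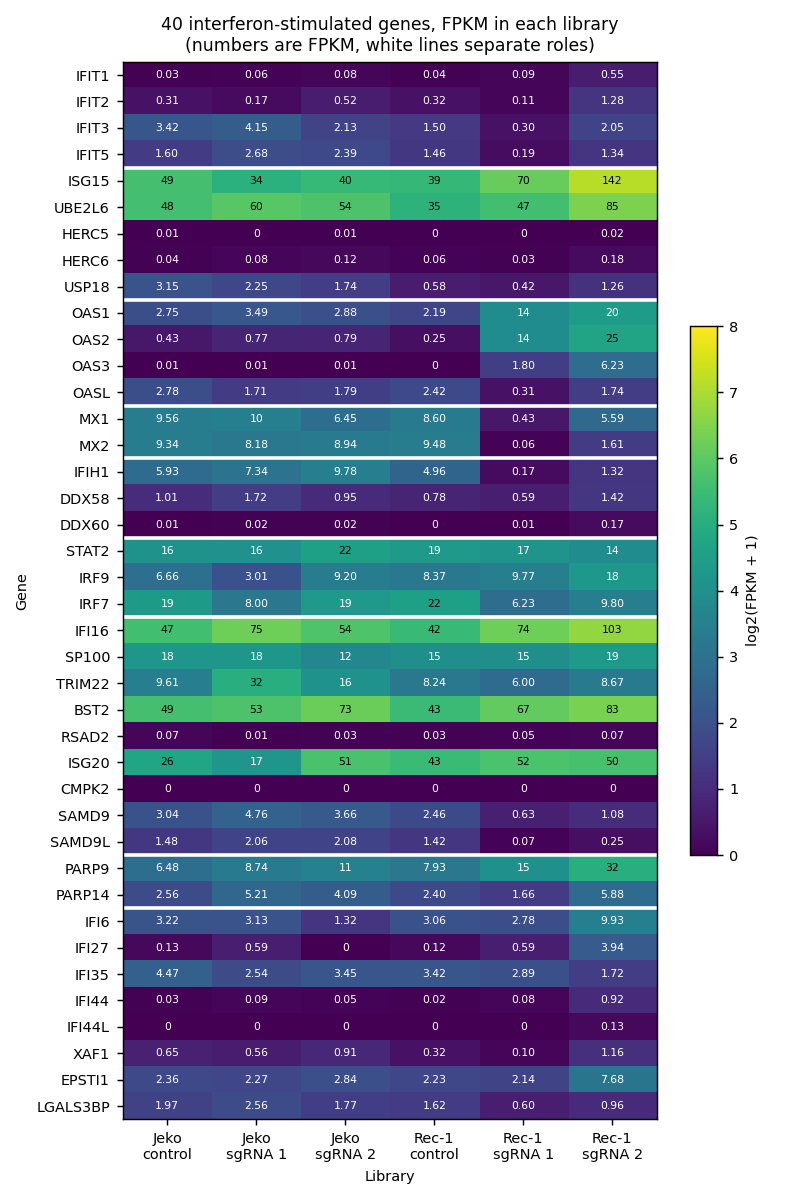
Levels of the 40 interferon-stimulated genes in each of the 6 libraries, as log2(FPKM + 1), with genes grouped by role on one axis and libraries on the other; brighter cells stand for higher levels and the numbers are FPKM. ISG15, UBE2L6, IFI16 and BST2 are high in all 6 libraries, and the Rec-1 control column resembles the Jeko columns (Pearson 0.977 with the Jeko control over the 29 tested members).

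The genes were expressed unevenly in these unstimulated lines. A total of 7 members exceeded 10 FPKM in every library: ISG15 and its E2 enzyme UBE2L6, the DNA-binding protein IFI16, the membrane tether BST2, the exonuclease ISG20, the nuclear body protein SP100 and STAT2. At the other end, 11 members had a mean under 1 FPKM over the 6 libraries and were not tested. They are CMPK2, DDX60, HERC5, HERC6, IFI27, IFI44, IFI44L, IFIT1, IFIT2, RSAD2 and XAF1. CMPK2, a mitochondrial nucleotide kinase whose gene overlaps RSAD2 on the other strand, was listed at 0 in all 6 libraries. Summed over the 40 genes, the control, sgRNA 1 and sgRNA 2 libraries of Jeko held 354, 390.4 and 421.5 FPKM. In Rec-1 it was 333.2 in the control, 422.5 with sgRNA 1 and 666.9 with sgRNA 2. Such sums rest mostly on the most abundant members, and the median member did not follow them. Its level was 2.21 FPKM for the Rec-1 control, 0.594 for Rec-1 sgRNA 1 and 1.89 for Rec-1 sgRNA 2. Members above 1 FPKM numbered 25, 18 and 30 in these libraries. The Jeko medians fell from 2.77 (control) to 2.62 (sgRNA 1) and 2.26 (sgRNA 2). The 29 members with a mean of at least 1 FPKM entered the tests below, which adjusted p over all 11400 genes tested. OAS2 and OAS3 passed that minimum only through the Rec-1 sgRNA libraries. IFIH1, IFIT5, LGALS3BP, MX2, SAMD9, SAMD9L and USP18 passed only through the other 4, so these 9 genes had to differ between those libraries.

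Rec-1 sgRNA 2 had higher levels of most of these genes than Rec-1 sgRNA 1. It was the higher of the 2 libraries for 26 of the 29 tested members (53.3% of all tested genes) and for 36 of the 40 listed. The exceptions were CMPK2, IFI35, ISG20 and STAT2. On the log2(FPKM + 1) scale, where low genes change less, 10 members were at least 2-fold higher with sgRNA 2 (1.81% of all tested genes) and 0 were at least 2-fold lower (2.07%, and 3.88% either way). The median difference over members was 0.78, against 0.03 over all tested genes. As plain FPKM ratios among the 37 members above 0 in both libraries, 22 were at least 2 (7.53% of all such genes) and 0 were 0.5 or less (5.38%), with a median ratio of 2.97 against 1.05. Each guide has a single library in this line, so these are differences between 2 libraries with no replicate and no test. Rec-1 sgRNA 1 is also the library whose low values showed no common step, and the part that this plays was not tested. In bulk RNA, a change in the number of expressing cells and a change in the RNA of each cell cannot be told apart.

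**Figure D2:**
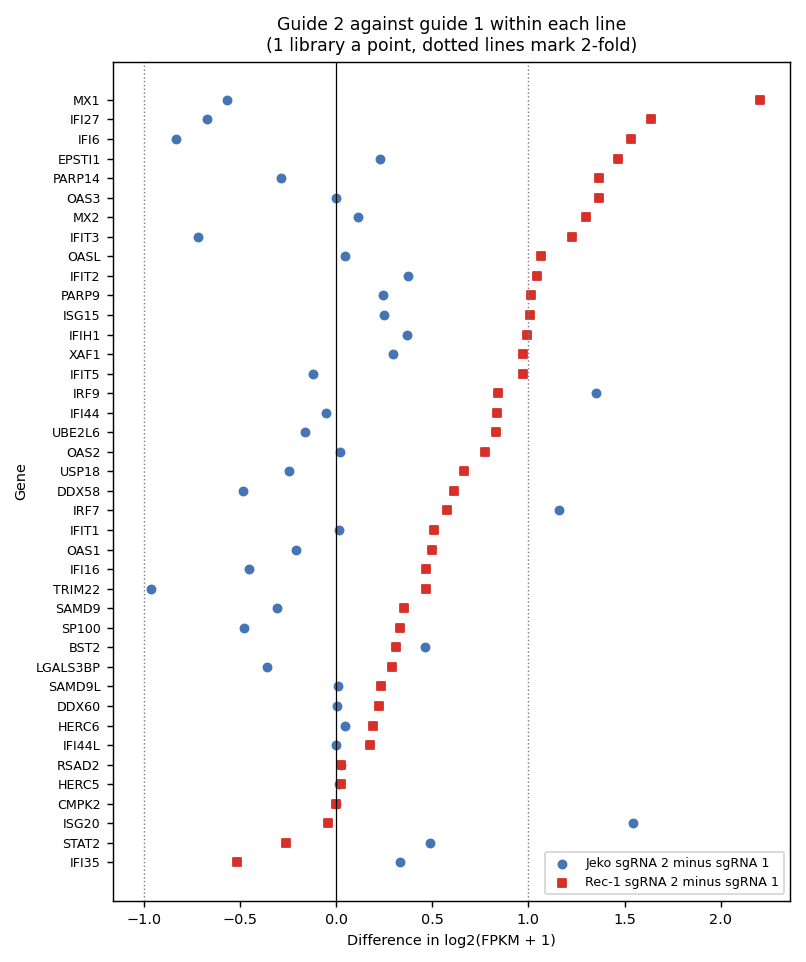
Difference of sgRNA 2 minus sgRNA 1 in log2(FPKM + 1) for each of the 40 genes, ordered by the Rec-1 difference; squares are Rec-1, circles are Jeko, each from 1 library a guide, and dotted lines mark 2-fold. In Rec-1, 36 of the 40 squares lie to the right of 0, with MX1 farthest at 2.20, and in Jeko 21 of the circles do.

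The MX GTPases, which block viruses early in infection, had some of the largest ratios between the Rec-1 guides. MX1 was 9.56, 10.1 and 6.45 FPKM in the Jeko control, sgRNA 1 and sgRNA 2 libraries and 8.60, 0.431 and 5.59 FPKM in the same order in Rec-1. MX1 was thus lowest in Rec-1 sgRNA 1 and 13.0 times higher with sgRNA 2, where it was still below the other 4 libraries. MX2 was 9.34, 8.18 and 8.94 FPKM in Jeko and 9.48, 0.0630 and 1.61 FPKM in Rec-1. Its ratio between the guides in Rec-1 was 25.6, with both libraries below the other 4. IFIT3, the scaffold of the IFIT complex that holds viral RNA lacking the host's cap marks, was 3.42, 4.15 and 2.13 FPKM in Jeko and 1.497, 0.301 and 2.05 FPKM in Rec-1. Its partner IFIT2 was 0.305, 0.175 and 0.522 FPKM in Jeko and 0.320, 0.106 and 1.28 FPKM in Rec-1. Both IFIT genes had their lowest value in the Rec-1 sgRNA 1 library. Their ratios between the guides were 6.80 for IFIT3 and 12.1 for IFIT2. OASL, a relative of the OAS enzymes without their activity, was 2.78, 1.71 and 1.79 FPKM in Jeko and 2.42, 0.307 and 1.74 FPKM in Rec-1. It too was lowest with Rec-1 sgRNA 1, and its ratio was 5.66.

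Other members were highest of all 6 libraries in Rec-1 sgRNA 2. ISG15, the ubiquitin-like protein that is attached to other proteins during the response, was 48.7, 33.9 and 40.4 FPKM in Jeko and 39.2, 69.8 and 141.5 FPKM in Rec-1. PARP9, which works with DTX3L, was 6.48, 8.74 and 10.5 FPKM in Jeko and 7.93, 15.1 and 31.5 FPKM in Rec-1. For ISG15 and PARP9 both Rec-1 sgRNA libraries were above the other 4, and sgRNA 2 was 2.03 and 2.09 times sgRNA 1. PARP14, a mono-ADP-ribosyltransferase, was 2.56, 5.21 and 4.09 FPKM in Jeko and 2.40, 1.66 and 5.88 FPKM in Rec-1. IFI6, a small membrane protein, was 3.22, 3.13 and 1.32 FPKM in Jeko and 3.06, 2.78 and 9.93 FPKM in Rec-1. EPSTI1 was 2.36, 2.27 and 2.84 FPKM in Jeko and 2.23, 2.14 and 7.68 FPKM in Rec-1. For IFI6 and EPSTI1 the other 5 libraries lay between 1.32 and 3.22 FPKM and Rec-1 sgRNA 2 alone was above them, at 3.57 and 3.59 times sgRNA 1. IFI27, which was under the expression minimum, was 0.130, 0.595 and 0 FPKM in Jeko and 0.118, 0.587 and 3.94 FPKM in Rec-1.

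The low members leaned the same way. Of the 11 under the minimum, 9 had their highest value in Rec-1 sgRNA 2, against 27.6% of 7070 low genes with any signal. IFI44 was 0.0231 to 0.0873 FPKM in the other 5 libraries and 0.924 in Rec-1 sgRNA 2. Its neighbour IFI44L was listed at 0 in 5 libraries and was 0.129 in Rec-1 sgRNA 2. XAF1 ranged from 0.0977 to 0.915 FPKM elsewhere and reached 1.15 there. These values are low, and 19.3% of all low genes above 0 in both Rec-1 sgRNA libraries had a ratio of at least 2. STAT2, by contrast, the ISGF3 subunit that carries the activation domain, was 16.8 FPKM with Rec-1 sgRNA 1 and 13.9 with sgRNA 2. Its partner IRF9 was 9.77 and 18.3 FPKM in those libraries.

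Members that met no criterion for naming fill in the remaining roles. BST2, which tethers budding virions to the cell surface, was 48.6, 53.0 and 73.4 FPKM in Jeko and 43.2, 67.0 and 83.3 FPKM in Rec-1. UBE2L6, the enzyme that passes ISG15 to its ligase, was 47.7, 60.0 and 53.6 FPKM in Jeko and 35.4, 47.2 and 84.9 FPKM in Rec-1. Both were lowest in the Rec-1 control and highest in Rec-1 sgRNA 2. The ligase HERC5 stayed at or under 0.0170 FPKM in every library, and its relative HERC6 at or under 0.183. DDX58 (RIG-I), which senses viral RNA ends, was 1.01, 1.72 and 0.947 FPKM in Jeko and 0.779, 0.586 and 1.42 FPKM in Rec-1, a ratio of 2.43 between the Rec-1 guides. IFIT5 was 1.60, 2.68 and 2.39 FPKM in Jeko and 1.46, 0.193 and 1.34 FPKM in Rec-1. It was thus low in the same library as IFIT3, MX1 and OASL, and its ratio between the Rec-1 guides was 6.94. IFI35, a partner of NMI, went the other way between these guides, at 2.89 FPKM with sgRNA 1 and 1.72 with sgRNA 2.

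**Figure D3:**
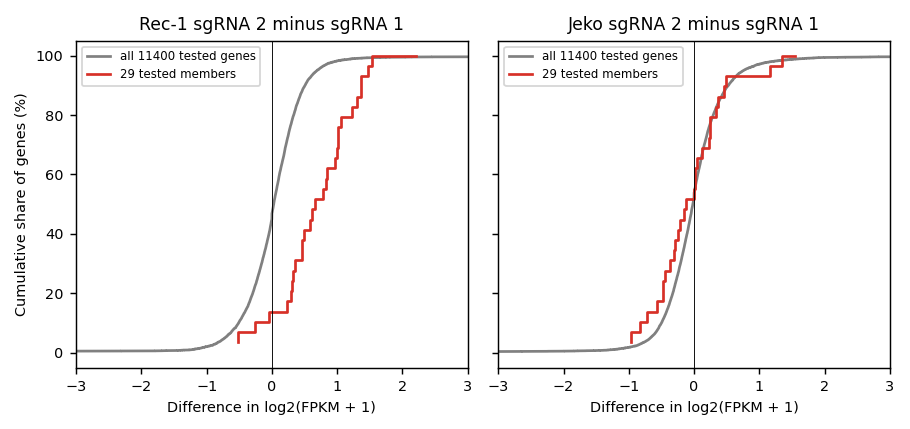
Cumulative share of genes, in percent, by the difference sgRNA 2 minus sgRNA 1 in log2(FPKM + 1), for tested members and for all tested genes, in Rec-1 and in Jeko. In Rec-1 the members' curve lies to the right of all genes (medians 0.78 and 0.03), and in Jeko the medians are −0.00 and −0.02.

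In Jeko, sgRNA 1 and sgRNA 2 showed no such lean. Jeko sgRNA 2 was above sgRNA 1 for 14 of the 29 members (46.2% of all tested genes), and the median difference was −0.00. At least 2-fold higher were 3 members (2.89%), namely IRF7, IRF9 and ISG20, and 0 were at least 2-fold lower (1.79%, and 4.68% either way). IRF7, which drives the interferon alpha genes, was 19.5, 7.996 and 19.1 FPKM in Jeko, so sgRNA 1 was the low library. IRF9 was 6.66, 3.01 and 9.203 FPKM and ISG20 was 25.9, 17.0 and 51.4 FPKM in the same order. Among the 36 members above 0 in both libraries, 5 ratios were at least 2 (7.92%) and 2 were 0.5 or less (6.12%), for IFI6 and TRIM22. Whether the guides' difference differs between the lines could not be tested with 1 library of each. Over both lines together, limma called 0 members between guide 2 and guide 1 at an adjusted p under 0.05 (0.0175% of all tested genes), and 1 at an unadjusted p under 0.05 (2.25%), IRF9.

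Against the empty-vector controls, with the lines fitted together, no member passed the test. Limma called 0 of the 29 at an adjusted p under 0.05 (0.246% of all tested genes, 0.184% higher and 0.0614% lower) and 3 at an unadjusted p under 0.05 (21.1%), namely IFI16, OAS2 and PARP9. The lowest adjusted p was for IFI16, whose log2 difference was 0.74 ± 0.27 (SE, limma adjusted p = 0.217). IFI16 was 46.6, 75.0 and 54.5 FPKM in Jeko and 42.2, 73.98 and 102.6 FPKM in Rec-1, higher in 4 of 4 sgRNA libraries than in their control. All 4 sgRNA libraries were above their own control for 6 members (21% of all tested genes), which are IFI16, BST2, UBE2L6, OAS1, OAS2 and PARP9. They were below it for 4 (21.1%), which are IFI35, IRF7, MX2 and OASL. The median difference over members was 0.11 and over all tested genes 0.01, and the members' median was −0.06 without Rec-1 sgRNA 2 and −0.04 without Jeko sgRNA 2. Without the Jeko control the contrast compares the Rec-1 sgRNA libraries with the single Rec-1 control, and the spread comes from the sgRNA libraries of both lines. Limma then called 3 members and 19.1% of all tested genes. They were OAS1 (2.46, limma adjusted p = 0.0141), OAS2 (3.97, adjusted p = 0.00817) and SAMD9L (−1.07, adjusted p = 0.0256), of which OAS2 and SAMD9L passed the expression minimum through one side alone.

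Within Jeko, 0 of the 29 members were at least 2-fold from the control in the same direction with both guides (3.04% of all tested genes, 1.89% higher and 1.15% lower). TRIM22, an E3 ligase of the TRIM family, was 9.61 FPKM in the control, 32.1 with sgRNA 1 and 16.0 with sgRNA 2, and only sgRNA 1 was at least 2-fold above the control. Within Rec-1, OAS1, OAS2 and OAS3 were at least 2-fold above the control with both guides (11.9%). IFIH1, IRF7 and MX2 were at least 2-fold below it (11.4%). IRF7 was 22.1 FPKM in the Rec-1 control, 6.23 with sgRNA 1 and 9.80 with sgRNA 2, so the sgRNA values overlap those of Jeko, where 7.996 was the lowest. With a single control in each line these counts have no test. The controls themselves differed by at least 2-fold for 1 member (2.51% of all tested genes, 1.68% higher and 0.833% lower in Rec-1). This was USP18, the protease that removes ISG15, at 3.15 FPKM in Jeko and 0.576 in Rec-1.

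Rec-1 and Jeko were compared on the 4 sgRNA libraries, 2 against 2, which leaves out the controls. It does not leave out the mismatch, since CCND1 was 0.696 and 0.592 FPKM in these Rec-1 libraries. Whether the differences below belong to the Rec-1 line was not tested. Limma called 8 of the 29 members, 3 higher in Rec-1 (12.6% of all tested genes) and 5 lower (13.1%). In both directions together 25.7% of all tested genes were called, so the members' count lies near that share. At an unadjusted p under 0.05 it was 12 members (41.9%). Both Rec-1 sgRNA libraries lay above the other 4 for 6 of the 29 (27%), which are IRF9, ISG15, PARP9, OAS1, OAS2 and OAS3, and below them for 7 (29.1%). Of these 8, every one but OAS1 had to differ because it passed the expression minimum through one side alone. The median difference was −0.27 over members and −0.03 over all tested genes.

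Higher in Rec-1 were the OAS enzymes, which make 2-5A oligonucleotides when they bind double-stranded RNA. OAS1 was 2.75, 3.49 and 2.88 FPKM in Jeko and 2.18, 13.8 and 19.8 FPKM in Rec-1, a log2 difference between the sgRNA libraries of 2.07 ± 0.25 (SE, limma adjusted p = 0.0110). OAS2 was 0.428, 0.767 and 0.791 FPKM in Jeko and 0.249, 14.0 and 24.7 FPKM in Rec-1, a difference of 3.46 ± 0.31 (SE, limma adjusted p = 0.00507). OAS3 was 0.00602, 0.00690 and 0.00546 FPKM in Jeko and 0, 1.80 and 6.23 FPKM in Rec-1 (2.16 ± 0.49, SE, limma adjusted p = 0.0440). In all of them the 2 Rec-1 sgRNA libraries were above the other 4, and the Rec-1 control was the lowest of the 6. These paralogues are similar in sequence, and how the authors treated shared reads is not given in the sources used here.

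Lower in Rec-1 were a sensor, an MX GTPase, a secreted glycoprotein and the SAMD9 pair. IFIH1 (MDA5), which senses long double-stranded RNA, was 5.93, 7.35 and 9.78 FPKM in Jeko and 4.96, 0.169 and 1.33 FPKM in Rec-1, a difference of −2.52 ± 0.39 (SE, limma adjusted p = 0.0196). SAMD9, which inhibits translation, was 3.04, 4.76 and 3.66 FPKM in Jeko and 2.46, 0.632 and 1.08 FPKM in Rec-1 (−1.49 ± 0.20, SE, limma adjusted p = 0.0149). Its paralogue SAMD9L was 1.48, 2.06 and 2.08 FPKM in Jeko and 1.42, 0.0655 and 0.252 FPKM in Rec-1 (−1.41 ± 0.13, SE, limma adjusted p = 0.00483). In each of these genes the Rec-1 control lay nearer to the Jeko libraries than to the Rec-1 sgRNA libraries. MX2, with the values above, differed by −2.52 ± 0.47 (SE, limma adjusted p = 0.0301). LGALS3BP was 1.97, 2.56 and 1.77 FPKM in Jeko and 1.62, 0.601 and 0.958 FPKM in Rec-1 (−0.83 ± 0.19, SE, limma adjusted p = 0.0478). As ratios of mean FPKM, SAMD9L was 13.0-fold, IFIH1 11.5-fold, MX2 10.2-fold and SAMD9 4.91-fold lower in the Rec-1 sgRNA libraries.

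These line calls rest on few libraries. SAMD9L passed the expression minimum only through the Jeko libraries and the Rec-1 control. That minimum was set on all 6 libraries, so leaving libraries out cannot test whether SAMD9L differs. It alone kept the call with each of the 4 libraries left out in turn. Without Jeko sgRNA 1 or without Jeko sgRNA 2 it was the only member called, against 10.2% and 11% of all tested genes. The other 7 each lost the call in at least 1 of these fits, where a single library stands for a group and is assumed to vary like the other. Over the fits the adjusted p from limma ran from 0.0496 to 0.0799 for OAS1, from 0.0139 to 0.0602 for OAS2 and from 0.00907 to 0.190 for OAS3. It ran from 0.0391 to 0.102 for IFIH1, from 0.0203 to 0.145 for MX2, from 0.0501 to 0.0962 for SAMD9 and from 0.0706 to 0.187 for LGALS3BP. Without Rec-1 sgRNA 1, 4 members were called, against 7.43% of all tested genes.

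**Figure D4:**
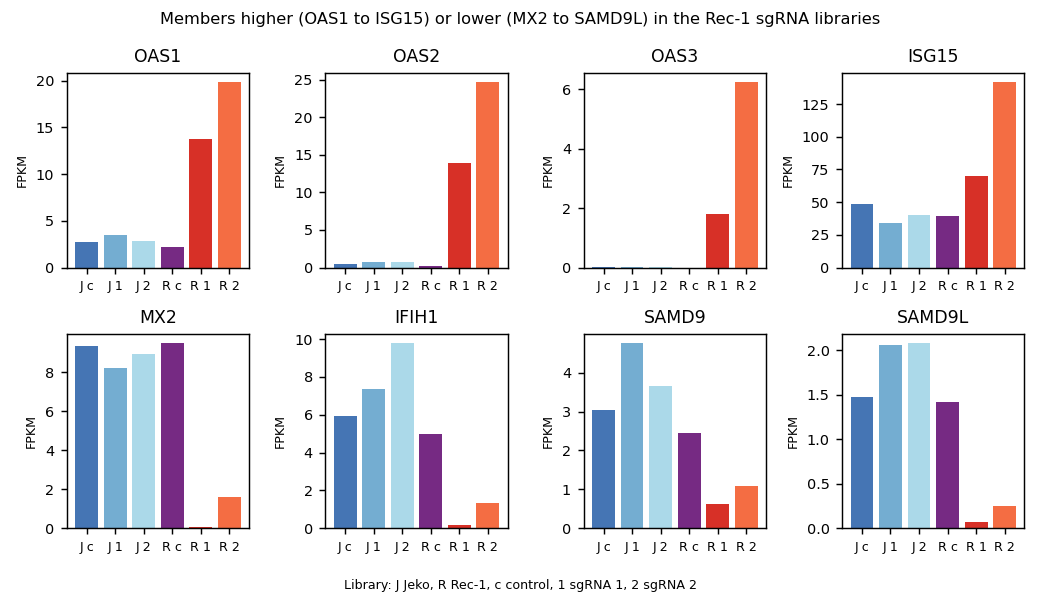
FPKM in each library of 8 members, as bars from 0 with 1 bar for each library. OAS1, OAS2, OAS3 and ISG15 are higher and MX2, IFIH1, SAMD9 and SAMD9L lower in the 2 Rec-1 sgRNA libraries than in the other 4, and ISG15 did not pass the test (limma adjusted p = 0.0701).

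With all 6 libraries grouped by line as labelled, limma called 0 members at an adjusted p under 0.05 (0.0439% of all tested genes, 0.0175% higher and 0.0263% lower) and 8 at an unadjusted p under 0.05 (23.5%). The lowest adjusted p from limma was 0.202, for IFIH1. With either control left out, the line difference is the one between the sgRNA libraries (3.46 for OAS2 in each). The next counts therefore repeat that comparison. Without the Rec-1 control 7 members were called (25.6% of all tested genes), and without the Jeko control also 7 (25.8%), so these counts lie near the share of all genes. The difference from the own-line control differed between the lines for OAS2, the single member called in the interaction (6.94% of all tested genes, 3.68% higher and 3.25% lower), at 3.66 ± 0.52 on the log2 scale (SE, limma adjusted p = 0.0362). OAS2 lost this call without Jeko sgRNA 1 (adjusted p = 0.177), without Jeko sgRNA 2 (adjusted p = 0.175) and with the guide number as a block (adjusted p = 0.0531). It also lost it with no expression minimum (limma adjusted p = 0.0863) and with a minimum of 5 FPKM (adjusted p = 0.0536). OAS3, not called with all 6, passed without Rec-1 sgRNA 1 (limma adjusted p = 0.0154) or without Rec-1 sgRNA 2 (adjusted p = 0.0284). In those fits the spread comes from the 2 Jeko sgRNA libraries alone, where OAS3 is near 0. Both genes passed the expression minimum only through the Rec-1 sgRNA libraries.

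Neighbouring genes could be followed in 8 places of the genome, given here in GRCh37 with GENCODE gene models. OAS1, OAS3 and OAS2 lie side by side on chromosome 12 (113343661 to 113449528), and all of them were high in the Rec-1 sgRNA libraries. OASL lies apart on the same chromosome (121455566 to 121477049) and was instead lowest with Rec-1 sgRNA 1. SAMD9 and SAMD9L share 48.9 kb of chromosome 7 (92728826 to 92777698) and were both low in the Rec-1 sgRNA libraries. Of these genes, OAS2, OAS3, SAMD9 and SAMD9L passed the expression minimum through one side alone, so they had to differ. MX2 and MX1 share 108.1 kb of chromosome 21 (42733926 to 42841998). At Rec-1 sgRNA 2 both were under every Jeko value. MX1 was nearer to its lowest Jeko value (5.59 against 6.45 FPKM) than MX2 was (1.61 against 8.18 FPKM). The 4 IFIT genes lie on chromosome 10 (91043451 to 91181362) and all were higher with Rec-1 sgRNA 2 than with sgRNA 1. The same held for 36 of the 40 members and for 53.3% of all tested genes. PARP9 and PARP14 on chromosome 3 (122246771 to 122449687) were at different levels with Rec-1 sgRNA 1, where PARP9 was 15.1 FPKM and PARP14 1.66. The other places hold IFI44L with IFI44, HERC6 with HERC5, and CMPK2 with RSAD2, all under the expression minimum.

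The wider pathway was followed in 90 further genes grouped by role, of which 61 were tested. Between the Rec-1 and Jeko sgRNA libraries limma called 7 of them higher and 16 lower (12.6% and 13.1% of all tested genes). Of these, 1 of the 7 (IFITM2) passed the expression minimum only through the Rec-1 sgRNA libraries and 5 of the 16, MB21D1, TMEM173, SOCS3 and TDRD7 among them, only through the other 4, so they had to differ. Among 13 tested sensors and adaptors, 1 was higher (UNC93B1) and 3 were lower: MB21D1, TMEM173 and TBK1. MB21D1 (cGAS), which senses DNA in the cytosol, was 12.8, 12.7 and 15.0 FPKM in Jeko and 12.0, 0.0658 and 0.0704 FPKM in Rec-1 (−3.79 ± 0.16, SE, limma adjusted p = 0.00122). TMEM173 (STING), the adaptor that acts next, was 14.4, 13.3 and 7.31 FPKM in Jeko and 11.9, 0.206 and 0.913 FPKM in Rec-1 (limma adjusted p = 0.0144). Both were thus near 0 in the Rec-1 sgRNA libraries alone. Of 8 tested brakes, 5 were lower in Rec-1 (SOCS1, SOCS3, PTPN2, SAMHD1 and ADAR) and 0 higher. SOCS3, an inhibitor of JAK signalling, was 3.52, 4.20 and 3.72 FPKM in Jeko and 2.01, 0 and 0.0222 FPKM in Rec-1.

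Among 23 tested effectors, 3 were higher in Rec-1 (12.6% of all tested genes) and 4 lower (13.1%), so these counts lie near the shares of all genes. The higher ones were IFITM1, IFITM2 and IFITM3, membrane proteins that hinder viral entry. IFITM2 was 0.294, 0.505 and 0 FPKM in Jeko and 0.200, 344.4 and 340.3 FPKM in Rec-1, and IFITM3 was 1.35, 0.869 and 1.99 FPKM in Jeko and 1.53, 33.2 and 30.5 FPKM in Rec-1. These genes are close copies, and reads may have been split between them. The lower effectors included APOBEC3G, PARP12 and TDRD7. TDRD7 was 2.24 to 3.25 FPKM in the Jeko and Rec-1 control libraries and listed at 0 in both Rec-1 sgRNA libraries. Among 9 receptors and kinases, IFNGR1 and IL10RB were higher and IFNLR1 and JAK1 lower, while among 8 tested factors IRF8 was higher and IRF4 and IRF5 lower. The same shares of all tested genes stand beside these few calls. In the interaction fit, 2 of the 61 tested pathway genes were called higher (3.68% of all tested genes), IFITM2 and IFITM3. Called lower were 4 (3.25%), IFNLR1, MB21D1, SOCS3 and TDRD7. Of these, IFITM2, MB21D1, SOCS3 and TDRD7 passed the expression minimum through one side alone. The interaction also rests on the Rec-1 control, which lies with Jeko.

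**Figure D5:**
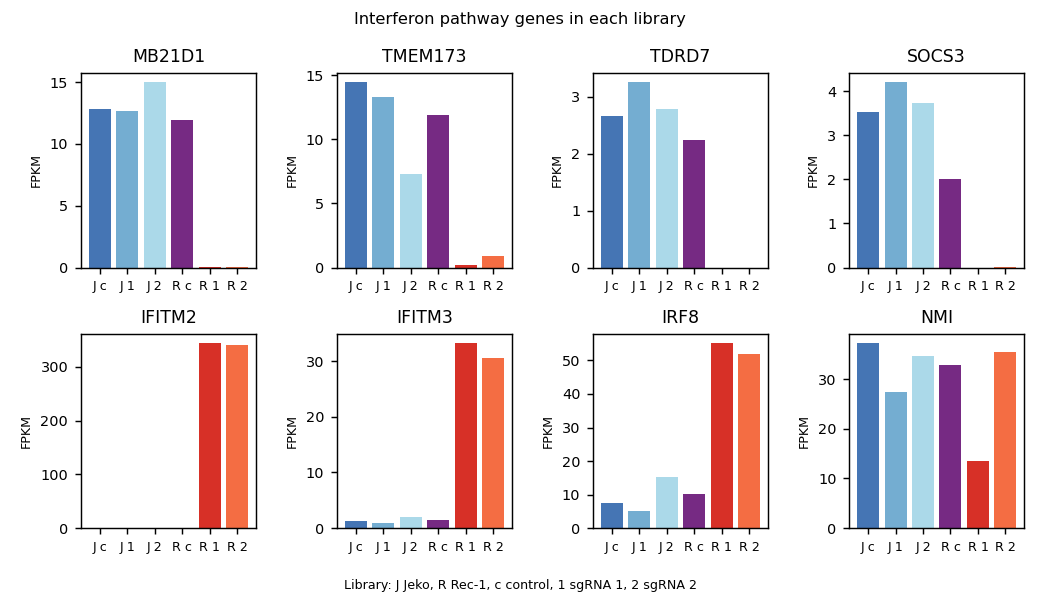
FPKM in each library of 8 interferon pathway genes outside the 40, as bars from 0 with 1 bar for each library. MB21D1, TMEM173, TDRD7 and SOCS3 are near 0 and IFITM2, IFITM3 and IRF8 are high in both Rec-1 sgRNA libraries, while NMI is lowest in Rec-1 sgRNA 1.

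Interferon genes themselves were barely detected. Of 10 ligand genes, 5 (IFNA1, IFNA2, IFNE, IFNL2 and IFNL3) were listed at 0 in all libraries and 0 reached the expression minimum. IFNG, the type II interferon, was the only one above 1 FPKM in any library, listed at 0 in the Jeko and Rec-1 control libraries and at 0.906 and 2.63 FPKM in Rec-1 sgRNA 1 and 2. IFNB1 was 0.122, 0 and 0.110 FPKM in Jeko and 0.110, 0.0582 and 0.531 FPKM in Rec-1. TAP1, PSMB8 and PSMB9, antigen-presentation genes that B cells use, were also listed at 0 in all 6 libraries. Whether a 0 stands for absent RNA or for a failed estimate was not tested. Between the Rec-1 guides, 3 of the 61 tested pathway genes were at least 2-fold higher with sgRNA 2 (1.81% of all tested genes) and 1 was at least 2-fold lower (2.07%). The higher ones included IRF2 (8.72 and 20.9 FPKM) and NMI (13.4 and 35.5 FPKM), and the lower one was TLR9, an endosomal DNA sensor (12.9 and 4.80 FPKM).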

How the data were processed

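RNA of 6 cell cultures was sequenced after TruSeq library preparation, per the labels' protocols. The authors deposited 1 table of FPKM values with a column for each library, per the file headers. TopHat and the hg19 build are named in the submitters' processing notes; the program that made the FPKM, the annotation and the use of strand are not given in the sources used here. FPKM are scaled for depth and length and are not counts, so limma 3.58.1 (R 4.3.3) was run on log2(FPKM + 1) for the 11400 genes whose 6 libraries averaged 1 FPKM or more. The variance followed a mean trend, and p was adjusted by the Benjamini-Hochberg method over all tested genes, with calls at 0.05. The fits compared sgRNA with control, guide 2 with guide 1, the lines, and their interaction. Guides served as replicates, so p-values measure only the spread between these libraries. Comparisons of 1 library with 1 have no test. The members and lists were chosen with earlier results of these data known. Members were named with every value when they passed a fit, when they differed 2-fold from control with both guides in a line, or when they differed 2-fold between the Rec-1 guides. Pathway genes were named when they passed a fit or differed 2-fold from control in all 4 sgRNA libraries. Other names, such as TRIM22, IRF2, NMI and the ligands, were chosen after their values were seen. Some pathway genes are not reported here. Promoter windows came from RefSeq, and gene positions from GENCODE 44 on GRCh37, which serves hg19. The limma code was tested on simulated data for every fit but the interaction, with independent noise and without the mismatch of the Rec-1 control. Alternatives changed the pseudocount, the minimum, the scaling, a length adjustment, the variance trend, a replicate block and each library in turn.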

Additional observations from a re-analysis of the deposited data

Results flagged for a closer look

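The OAS2 difference between sgRNA and control libraries was itself different between the lines, by a limma interaction term of 3.66 on the log2(FPKM + 1) scale (adjusted p = 0.0362). The call was lost with the guide number as a block (limma adjusted p = 0.0531), with no expression minimum (0.0863), with a minimum of 5 FPKM (0.0536) and without either Jeko sgRNA library (0.177 and 0.175). OAS2 moved from 0.428 to 0.767 and 0.791 FPKM in Jeko and from 0.249 to 14.0 and 24.7 FPKM in Rec-1. The Rec-1 side of this term rests on the control library that lies with Jeko, and OAS2 passed the expression minimum only through the Rec-1 sgRNA libraries.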

How the results depend on the processing

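No member called with all libraries changed direction, but leaving out a library turned the sign of some differences that were not called. For sgRNA against control, the log2 differences that did so were those of IFI6 (−0.45 to 0.66), IFIH1 (−1.85 to 0.45), IFIT3 (−0.48 to 0.0450), ISG15 (−0.39 to 1.32), LGALS3BP (−0.57 to 0.0803), SAMD9 (−0.91 to 0.36) and SAMD9L (−1.07 to 0.31). For the interaction, the log2 differences that did so were those of EPSTI1 (−0.12 to 1.35), IFIT3 (−0.80 to 0.42), OASL (−0.93 to 0.14) and PARP14 (−1.01 to 0.36). For guide 2 against guide 1, the log2 differences that did so were those of IFI6 (−0.82 to 1.51), IFIH1 (−0.13 to 1.49), IFIT3 (−0.52 to 1.03), ISG15 (−0.0853 to 1.34), LGALS3BP (−0.44 to 0.37), MX1 (−0.58 to 2.21), MX2 (−0.37 to 1.78), OAS1 (−0.70 to 0.98), OAS2 (−0.80 to 1.59), OAS3 (−0.37 to 1.74), PARP14 (−0.16 to 1.24), SAMD9 (−0.54 to 0.59) and SAMD9L (−0.31 to 0.55). For the lines as labelled, the log2 differences that did so were those of EPSTI1 (−0.13 to 0.71), IRF7 (−0.61 to 0.0611) and PARP14 (−0.64 to 0.14). For the sgRNA libraries of the lines, the log2 differences that did so were those of EPSTI1 (−0.18 to 1.29) and PARP14 (−1.08 to 0.29). Between guides, LGALS3BP also turned to 0.0430 with a pseudocount of 0.1, and SAMD9 to −0.0428 after quantile normalization. For sgRNA against control, the 28 genes called became 12 with no minimum and 9 with a replicate block, and leaving out a library gave 11 to 2180 genes and 0 to 3 members. In the interaction, 1 member was called, and 0 with no minimum, a 5 FPKM minimum or a replicate block, 2 when median centred or length adjusted, and 0 to 2 with a library left out. Its 791 genes became 318 with the 5 FPKM minimum, 428 with the block and 75 to 454 with a library left out. Between guides, 2 genes became 0 with no minimum, 0 after quantile normalization, 1 after length adjustment and 0 to 0 with a library left out. Between the lines as labelled, 5 genes became 3 with no minimum, 2 after length adjustment and 2 to 2940 with a library left out, and members 0 to 7. Between the sgRNA libraries of the lines, 8 members became 5 with a pseudocount of 0.1, 5 with no minimum, 3 with the 5 FPKM minimum and 1 to 7 with a library left out. Its 2933 genes became 1529 with the 5 FPKM minimum and 847 to 1253 with a library left out. At 1.5-fold, members counted rose from 10 to 17 between the Rec-1 guides (15.39% of all tested genes) and from 3 to 6 between the Jeko guides (15.35%). For Rec-1 against its control they rose from 6 to 12 (40.4%), near the share of all genes. For Jeko against its control they rose from 0 to 1 (11.3%), and between the controls from 1 to 3 (6.67%). A pseudocount of 0.1 gave 5 members between the Jeko guides (7.63%) and 2 between the controls (3.95%). The cause was not tested. Median centring moved the median of all genes by −0.10 in Jeko and −0.08 in Rec-1 against the controls. Among 1055 single-gene alternatives, 958 kept their call and direction, 34 lost the call, 23 gained it and 40 turned direction without one. The interaction could not be fitted without either control. The numbers name the guides, and whether same-numbered cultures of the lines were handled together is not given in the sources used here. Their deviations had a correlation of 0.0998 over all tested genes. With the replicate block 9 members were called between the sgRNA libraries of the lines (23.1% of all tested genes). Unknown depth limits what can be said of the 11 low members.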

Other observations

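Members with the ISRE-like letters in their promoter window and members without them can be set side by side, as a description, for the difference between the Rec-1 guides. Counted were genes with promoter entries and a value above 0 in both libraries. The FPKM ratio of sgRNA 2 to sgRNA 1 was at least 2 for 14 of 19 members with a match (73.7%, median ratio 3.57) and for 4 of 11 without (36.4%, median ratio 1.80). Among other genes the shares were 11.1% of 404 with a match and 6.36% of 10091 without. With a mean of at least 1 FPKM, they were 4.41% of 295 and 2.44% of 7819. In Jeko the ratio of the guides was at least 2 for 2 of 18 members with a match (11.1%) and 1 of 11 without (9.09%). Among other genes in Jeko the shares were 6.67% of 390 with a match and 7% of 9878 without. Of the 67 pathway genes with a promoter window, 26 held the letters (38.8%).

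IRF4, a factor of B-cell and plasma-cell identity, was 76.6, 71.1 and 103.5 FPKM in Jeko and 98.3, 28.2 and 25.1 FPKM in Rec-1, and the 3 plasma-cell markers summed to 109 to 155 FPKM in the Jeko and Rec-1 control libraries and to 29.2 and 30.9 in the Rec-1 sgRNA libraries. IRF8, a factor of germinal-centre B cells and myeloid cells, was 7.38, 5.23 and 15.4 FPKM in Jeko and 10.3, 55.2 and 51.8 FPKM in Rec-1.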
